A study of Mus musculus with 6 samples.

Results

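The adhesion genes that let leukocytes stop on a vessel wall and leave the blood were followed here in mouse heart cells passed through a mesh that holds back cardiomyocytes. They are 9 genes: the endothelial ligands Sele, Selp, Icam1 and Vcam1, and their leukocyte partners Selplg, Itgam, Itgal, Itga4 and Itgb2. They were chosen by symbol, as 9 of the 32285 genes in the count tables. The cells came from ventricles of male mice aged 8 to 12 weeks, which had either a sham operation or a tied-off left anterior descending (LAD) artery, a mouse model of myocardial infarction. Wild-type mice (WT, strain C57BL/6JRj) and Trpm4 knockout mice (KO, strain B6.Cg-Trpm4tm1.2-PG) were each sampled 24 h after sham, 24 h after ligation and 72 h after ligation, and no sham at 72 h is among these samples. Trpm4 encodes a calcium-activated cation channel. The labels name no Cre line or cell type for the deletion. Hearts were digested, cardiomyocytes were held back on a mesh, and live cells were sorted with Calcein-AM and DAPI, so that both blood cells in the heart and cells of the tissue could be captured. Live cells of 4 mice were pooled for each library, and each of the 6 groups has 1 library. The mice of a pool cannot be told apart. No comparison below therefore has a replicate check, no test was made, and every interval covers counting error alone.

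Leukocytes leave the blood in steps. Selectins on activated endothelium, E-selectin (Sele) and P-selectin (Selp), catch and roll leukocytes by binding glycosylated P-selectin glycoprotein ligand (Selplg). The rolling cell then arrests as its integrins bind immunoglobulin-like ligands. The beta chain Itgb2 pairs with Itgal or with Itgam, and both of these integrins bind Icam1, whereas the alpha chain Itga4 pairs with another beta chain and binds Vcam1. P-selectin is also stored in platelets and in endothelial granules, and Vcam1 is made by many stromal cells. Transcript counts say nothing of the stored protein, of its presence on the surface or of integrin activation.

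The stretches before the start sites of the inducible ligands are shown because these genes are classical targets of inflammatory signalling. They come from RefSeq (GRCm38.p6), which gave a promoter for 5 of the 9 genes, and each shows the 250 bases before the start on the plus strand. Capitals mark matches to GGAANNTCC, a pattern of the NF-kappaB type chosen after these promoters had been read, and searched on both strands.
Sele, chr1:164047984-164048233: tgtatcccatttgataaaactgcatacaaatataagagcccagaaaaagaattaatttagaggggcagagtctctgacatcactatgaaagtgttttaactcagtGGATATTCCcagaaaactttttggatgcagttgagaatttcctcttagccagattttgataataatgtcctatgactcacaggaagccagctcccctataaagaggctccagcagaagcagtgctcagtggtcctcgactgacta
Selp, chr1:164115014-164115263: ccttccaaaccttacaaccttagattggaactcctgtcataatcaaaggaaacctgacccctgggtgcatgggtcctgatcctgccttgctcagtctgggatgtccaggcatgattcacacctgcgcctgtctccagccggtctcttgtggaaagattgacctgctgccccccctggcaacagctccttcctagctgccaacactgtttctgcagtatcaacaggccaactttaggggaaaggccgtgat
Icam1, chr9:21015690-21015939: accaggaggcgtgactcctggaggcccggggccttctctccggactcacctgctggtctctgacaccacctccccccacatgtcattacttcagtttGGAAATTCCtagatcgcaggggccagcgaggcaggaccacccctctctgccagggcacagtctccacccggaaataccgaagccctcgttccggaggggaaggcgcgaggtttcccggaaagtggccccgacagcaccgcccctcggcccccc
The Sele match lies 145 to 137 bases before the start and reads on the minus strand, and the Icam1 match lies 153 to 145 bases before it and fits the pattern on both strands. The Selp stretch holds no match to these letters. The pattern occurs in 1178 of 32851 RefSeq promoters of the same length (3.59%), and a match describes letters and not a bound site.

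Sele and Selp lie near each other on chromosome 1, at chr1:164048234-164057677 and chr1:164115264-164150026 on the plus strand of GRCm38. Icam1 lies at chr9:21015985-21028817 on the plus strand and Vcam1 at chr3:116109949-116129688 on the minus strand. Of the partners, Selplg lies at chr5:113818536-113832644 on the minus strand. Itgam (chr7:128062640-128118491) and Itgal (chr7:127296260-127335138) share chromosome 7, and Itga4 (chr2:79255426-79333123) and Itgb2 (chr10:77530252-77565708) complete the set, these 4 on the plus strand. Selp, Icam1, Vcam1 and Itga4 overlap an annotated gene on the opposite strand, and Itgam overlaps Gm49368 on its own strand. How the counting treated strand is not given in the sources used here, so reads of such partners may be included.

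The 6 libraries held 32085 cells after filtering, from 3365 to 6824 each. Their median depth ran from 1351 to 8011 UMIs (unique molecular identifiers, 1 per captured transcript), and the library with 1351 was KO at 72 h. That library stood apart: an unnamed cluster led by Gm42418, S100a9 and S100a8 held 1340 cells, of which 1232 came from it. Clustering without the 9 genes gave 37 clusters in 13 named classes, with 4 clusters (1472 cells) unnamed. A cardiomyocyte class remained among those named, from 13 cells in WT at 24 h to 185 in KO at 72 h. Levels in summed cells are given in CPM, the UMIs of a gene scaled to a fixed total of the UMIs of the cells summed. Trpm4 itself was read at 8.48, 5.48 and 4.23 CPM in WT sham, WT 24 h and WT 72 h, against 5.82, 3.39 and 2.56 CPM in the KO libraries, and tags from the 3' end may lie outside the deleted part and so do not check the labels. Any pair of libraries shared 3 to 14 cell barcodes.

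The 9 transcripts divided by cell class, but not as cleanly as their roles. Vcam1 came mainly from endothelial cells, with 47.1% of its 6344 UMIs, and fibroblasts, with 38.9%. Endothelial cells held 46.0% of the 261 Sele UMIs, pericytes 26.8% and fibroblasts 14.9%. Of 1837 Selp UMIs, 35.2% were endothelial, an equal 35.2% came from monocyte/macrophage cells, 16.9% from neutrophils and 7.68% from lymphatic endothelial cells. Icam1 was the ligand with the largest leukocyte part: 37.8% of its 9725 UMIs were in monocyte/macrophage cells, 24.4% in neutrophils and 18.4% in endothelial cells. The partners were carried by leukocytes, with 56.7% of the Selplg UMIs in neutrophils and 64.7% of Itgam, 67.6% of Itgb2 and 62.2% of Itga4 in monocyte/macrophage cells. Itgal was shared by neutrophils (45.1%) and monocyte/macrophage cells (42.2%). These shares also follow how many cells of each class were captured.

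Selp, which rolls leukocytes within minutes of activation from stored protein, was highest in endothelium of the WT heart 24 h after ligation. Its endothelial level was 16.2 CPM in WT sham (143 UMIs), 9.57 in KO sham (120), 90.9 in WT at 24 h (293), 8.96 in KO at 24 h (21), 22.2 in WT at 72 h (36) and 25.9 in KO at 72 h (33). The WT library at 24 h thus stood far above the other 5, and the sum for KO at 24 h lay near that of KO sham. The ratio of ligation to sham at 24 h was 5.61 in WT (95% interval 4.58 to 6.90) and 0.936 in KO (0.559 to 1.497), and at 24 h KO stood at 0.0985 of WT (0.0601 to 0.153).

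Those UMIs sat in very few cells. In WT at 24 h, 18 of 735 endothelial cells held all 293 Selp UMIs, 5 of them held 254, and the highest held 78. In KO at 24 h 6 of 757 cells had any, and 1 cell had 14 of the 21. In WT sham 143 UMIs lay in 35 of 2350 cells, and in KO sham 120 lay in 23 of 3095 cells, 50 of them in 1 cell. Without the 5 highest cells of each library, a choice made after seeing the data, the WT ratio fell from 5.61 to 1.84 (1.20 to 2.81) and the KO to WT ratio at 24 h was 0.0347, on 1 UMI in KO. The KO ratio of 24 h to sham was not stable: it was 0.139 (0.00343 to 0.820) without those cells, 0.279 with thinned cells and 1.85 with no doublet removal. The share of endothelial cells with a Selp UMI was 1.49% in WT sham and 2.45% in WT at 24 h, against 0.743% and 0.793% in KO. With every cell thinned to 1000 UMIs the shares were 0.352% and 1.22% in WT, and in KO 0.230% and none of 674 cells, which allows up to 0.445%. T/NK cells, which are not known to make Selp, had no UMI in WT or KO at 24 h. Thinned, these were 0 of 73 and 0 of 87 cells, which allows up to 4.11% and 3.45%. That lies above every endothelial share given here, so the 0 sets no background for them. Fibroblasts had a median of 8783 to 10761 UMIs in the 4 libraries up to 24 h. A Selp UMI was in 0.8% and 1.52% of them in WT and KO sham, and in 0.505% and 0% in WT and KO at 24 h. Thinned, the fibroblast shares were 0% and 0.654% in WT and KO sham and 0.51% and 0% at 24 h. The thinned 0% in WT sham and in KO at 24 h came from 371 and 187 cells and allows up to 0.809% and 1.60%. The endothelial shares up to 24 h, except that of WT at 24 h, do not exceed the highest unthinned fibroblast share, and no difference is read from them, although single endothelial cells held many more UMIs than 1. The counting interval of a sum treats UMIs as independent, so it is too narrow for a gene spread in this way, and a difference of a few cells carries the WT value.

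**Figure D1:**
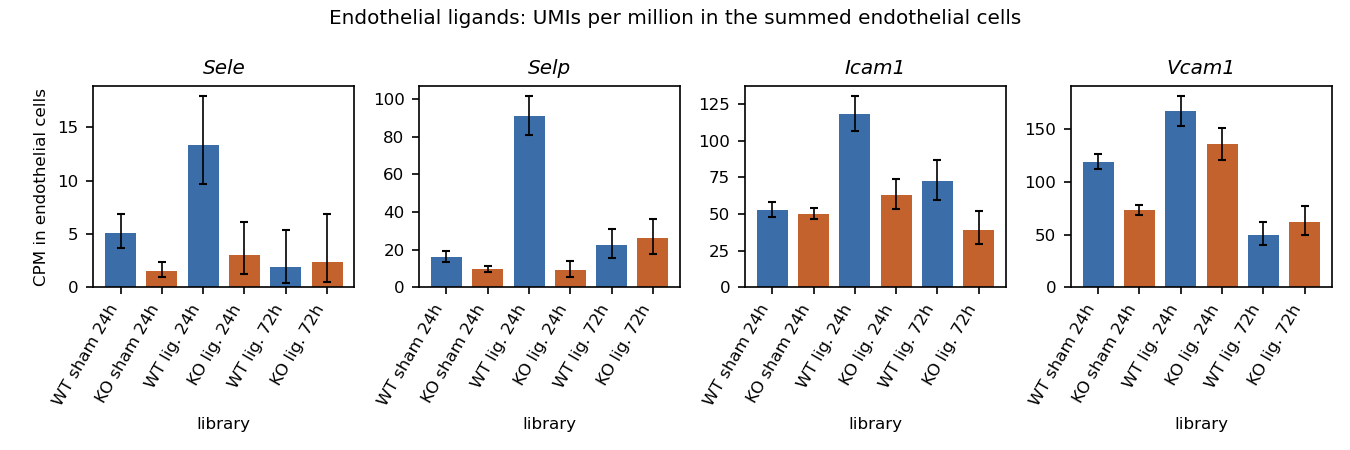
Level of the 4 ligands in summed endothelial cells of each library, in CPM, with exact 95% Poisson intervals that cover counting error only (blue WT, orange KO, 1 library per bar, each panel with its own axis from 0). Selp stands at 90.9 CPM in WT 24 h after ligation and between 8.96 and 25.9 in the other libraries.

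**Figure D2:**
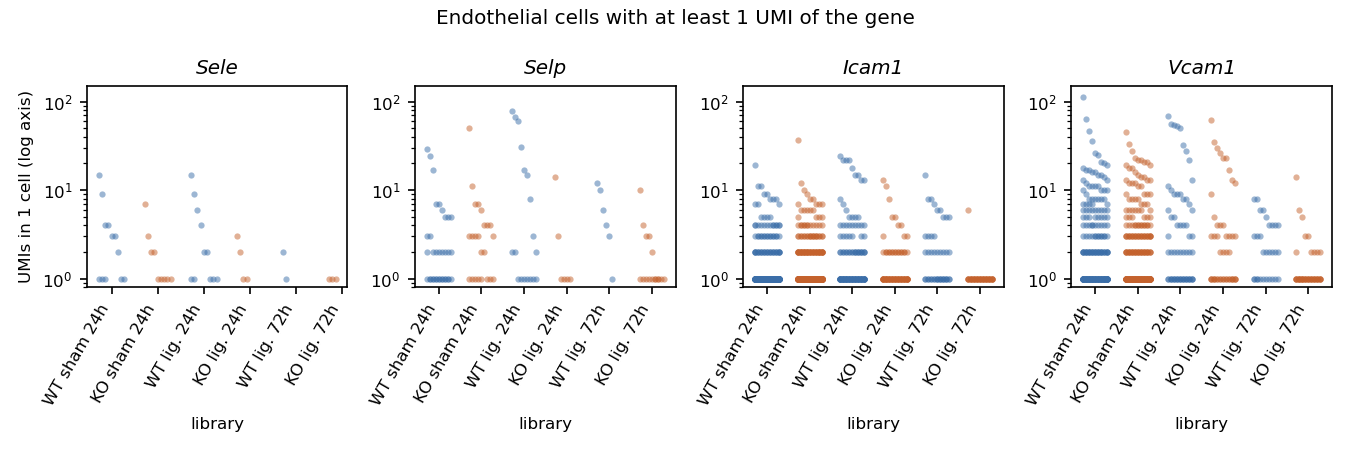
UMIs of each ligand in every endothelial cell that has at least 1, by library, on a log axis (blue WT, orange KO; the sideways spread of points has no meaning). The 5 highest Selp cells of WT at 24 h hold 254 of 293 UMIs, whereas Icam1 is spread over 129 cells in the same library.

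Selp at 72 h was measured on few UMIs. WT fell from 24 h to 72 h to 0.244 of its level (0.168 to 0.346), and KO rose to 2.90 times (1.63 to 5.27), with 36 and 33 UMIs at 72 h. The KO value rests on the library that stood apart. There the 4 endothelial subclusters led by leukocyte genes held 500 of 683 endothelial cells. Without these subclusters the KO ratio was 4.32 (2.27 to 8.29), on only 23 UMIs at 72 h and 20 at 24 h. Together these are below the 50 UMIs set as the least for a ratio, so this value does not count as measured. The 23 UMIs lay in 7 cells, with 10 in 1 cell. The 2 genotypes at 72 h differed by a ratio of 1.17 (0.706 to 1.93), an interval that holds 1, but without the 5 highest cells of each library it was 13.95 (2.03 to 601) on 11 UMIs in KO and 1 in WT, and the WT ratio of 72 h to 24 h was 0.0527.

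Sele was the rarest of the 9 genes, and its endothelial level was again highest in WT 24 h after ligation. It stood at 5.10 CPM in WT sham (45 UMIs), 1.51 in KO sham (19), 13.3 in WT at 24 h (43), 2.99 in KO at 24 h (7), and 1.85 and 2.36 in WT and KO at 72 h (3 UMIs each). The ratio of ligation to sham in WT was 2.62 (1.68 to 4.06). KO lay below WT in sham, with a ratio of 0.297 (0.164 to 0.518), and at 24 h, with 0.224 (0.0849 to 0.502). These sums came from 12, 9, 11 and 4 cells, and 1 cell held 15 UMIs in WT sham and in WT at 24 h. Without the 5 highest cells, the WT ratio was 1.95 (0.629 to 5.67) on 7 and 10 UMIs. The Sele ratio of KO at 24 h to KO sham was below the 50 UMIs set as the least for a ratio and is not given.

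Pericytes, the mural cells of capillaries, carried more Sele per UMI than endothelium did. Their level was 34.0 CPM in WT sham (10 UMIs in 7 of 87 cells), 20.5 in KO sham (6 in 6 of 89), 70.4 in WT at 24 h (20 in 8 of 55), 35.5 in KO at 24 h (10 in 8 of 91) and 25.5 in KO at 72 h (13 in 9 of 381). In each of these 5 libraries the pericyte level was above the endothelial one and the counting intervals did not overlap, and WT at 72 h had under 50 pericytes. The UMIs were spread over the cells, with at most 8 in 1 cell. Of the pericyte clusters, the one led by Kcnj8, Vtn and Abcc9 stood at 49.8 CPM, and the one that came mainly from KO at 72 h stood at 4.88. Markers of the endothelium summed to between 1241 and 4670 CPM in pericytes, against 14374 to 41454 CPM in endothelial cells, and the pericytes also held monocyte/macrophage markers, at 157 CPM in WT sham, 2786 in KO sham, 4694 in WT at 24 h, 497 in KO at 24 h and 12948 in KO at 72 h, and platelet markers, from 30.6 CPM in WT sham to 2842 in WT at 24 h; the part of such RNA in their Sele was not tested. Pericytes had 2 Selp UMIs in all, both in KO at 72 h. The 3 genes whose pattern over 57 class and library sums was most like that of Sele, by Pearson correlation of log2(CPM + 10) among 11383 genes, were Kcnj8 (0.90), Abcc9 (0.90) and Colec11 (0.89), of which the first and second encode parts of a potassium channel of pericytes. All 3 are also among the fixed markers that named the pericyte class, so the likeness adds no separate support to the levels above. Sums that share a library or a class are not independent, and the correlation is a description.

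**Figure D3:**
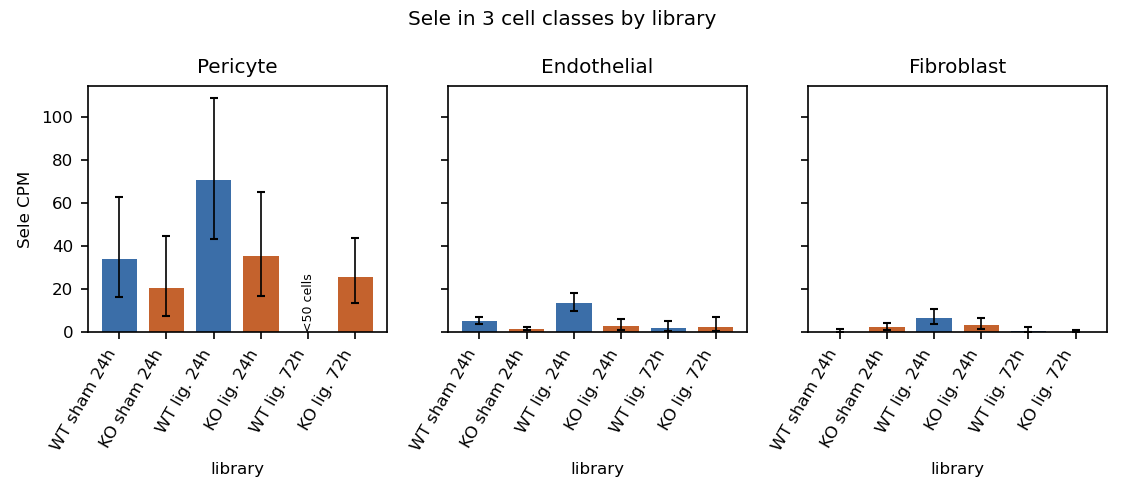
Sele level in pericytes, endothelial cells and fibroblasts of each library, in CPM on 1 shared axis, with exact 95% Poisson intervals (blue WT, orange KO; a class under 50 cells has no bar). Pericytes lie between 20.5 and 70.4 CPM and endothelial cells between 1.51 and 13.3 CPM.

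Icam1, the ligand of both Itgb2 integrins, stood higher in summed WT endothelium 24 h after ligation than in sham. It stood at 52.8 CPM in WT sham (466 UMIs), 50.2 in KO sham (629), 118 in WT at 24 h (381), 63.1 in KO at 24 h (148), 72.2 in WT at 72 h (117) and 39.3 in KO at 72 h (50). The 2 sham libraries differed by a ratio of 0.949 (0.841 to 1.07), an interval that holds 1. The ratio of ligation to sham was 2.24 in WT (1.95 to 2.57) and 1.26 in KO (1.05 to 1.51), and KO stood at 0.534 of WT at 24 h (0.439 to 0.647) and at 0.545 at 72 h (0.383 to 0.765).

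Unlike the selectins, Icam1 was found in many endothelial cells. It was seen in 10.9% of them in WT sham, 11.5% in KO sham, 17.6% in WT at 24 h and 10.96% in KO at 24 h, and after thinning in 4.18%, 3.09%, 6.88% and 3.71%. Smooth muscle cells, at a median of 5223 to 7804 UMIs in these 4 libraries against 2637 to 3656 in endothelium, had a UMI in 0 to 1.96% of cells. The 5 highest cells held 28.4% of the Icam1 UMIs in WT at 24 h, and without them in each library the WT ratio was 1.86 (1.59 to 2.17) and the KO ratio 1.04 (0.836 to 1.28). The WT value then lies below 2-fold. From 24 h to 72 h, Icam1 went to 0.610 of its level in WT and to 0.623 in KO, and without the subclusters led by leukocyte genes the KO ratio was 0.495 and that of KO to WT at 72 h was 0.420.

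Vcam1, the ligand of Itga4 integrins, was past 2-fold lower in endothelium at 72 h than at 24 h in both genotypes, and not past 2-fold at 24 h against sham. Its endothelial level was 119 CPM in WT sham (1052 UMIs), 73.5 in KO sham (922), 167 in WT at 24 h (539), 136 in KO at 24 h (318), 49.97 in WT at 72 h (81) and 62.1 in KO at 72 h (79). Ligation to sham gave 1.40 in WT (1.26 to 1.56) and 1.85 in KO (1.62 to 2.10), and these came from few cells: without the 5 highest of each library they were 0.927 and 1.004. From 24 h to 72 h Vcam1 went to 0.299 in WT (0.233 to 0.378) and 0.458 in KO (0.353 to 0.587). The unthinned share of cells with a UMI did not fall with it, but the thinned share was lower at 72 h in WT. Unthinned, it was 8.57% and 11.3% in WT at 24 h and 72 h, and 6.21% and 7.03% in KO. After thinning it was 4.89% and 3.83% in WT and 3.41% and 5.17% in KO. The highest cell held 68 UMIs in WT at 24 h and 8 at 72 h, so the lower sum went with fewer cells of high count. In sham, KO stood at 0.616 of WT (0.563 to 0.674), and at 0.702 without the 5 highest cells, of which 1 WT cell had 114 UMIs. B cells in the ligation libraries had no Vcam1 UMI, and in neutrophils 0.177% to 0.569% of cells had 1.

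Within endothelium, Selp, Sele and Vcam1 were concentrated in 2 of 18 subclusters. Subcluster 11, endocardial-like by Npr3 and other fixed markers but led also by Dcn and Lum, which fibroblasts share, held 227 cells and stood at 201 CPM for Selp, 20.5 for Sele, 226 for Icam1 and 996 for Vcam1. Subcluster 10, led by Prss23, Lrg1 and Fam167b and left unnamed, although venous markers fitted it best, held 248 cells and stood at 97.8, 29.6, 126 and 281 CPM for the same genes. The capillary-like subclusters 0 and 2 and the arterial-like subcluster 3 had at most 1.60 CPM of Selp and 0.963 of Sele, and 24.8 to 37.7 CPM of Icam1. Subclusters 10 and 11, set together after seeing the data, made up 6.03% of the endothelial cells and held 85.1% of the Selp UMIs, 80% of the Sele UMIs and 77.5% of the Vcam1 UMIs, but 36.3% of those of Icam1.

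**Figure D4:**
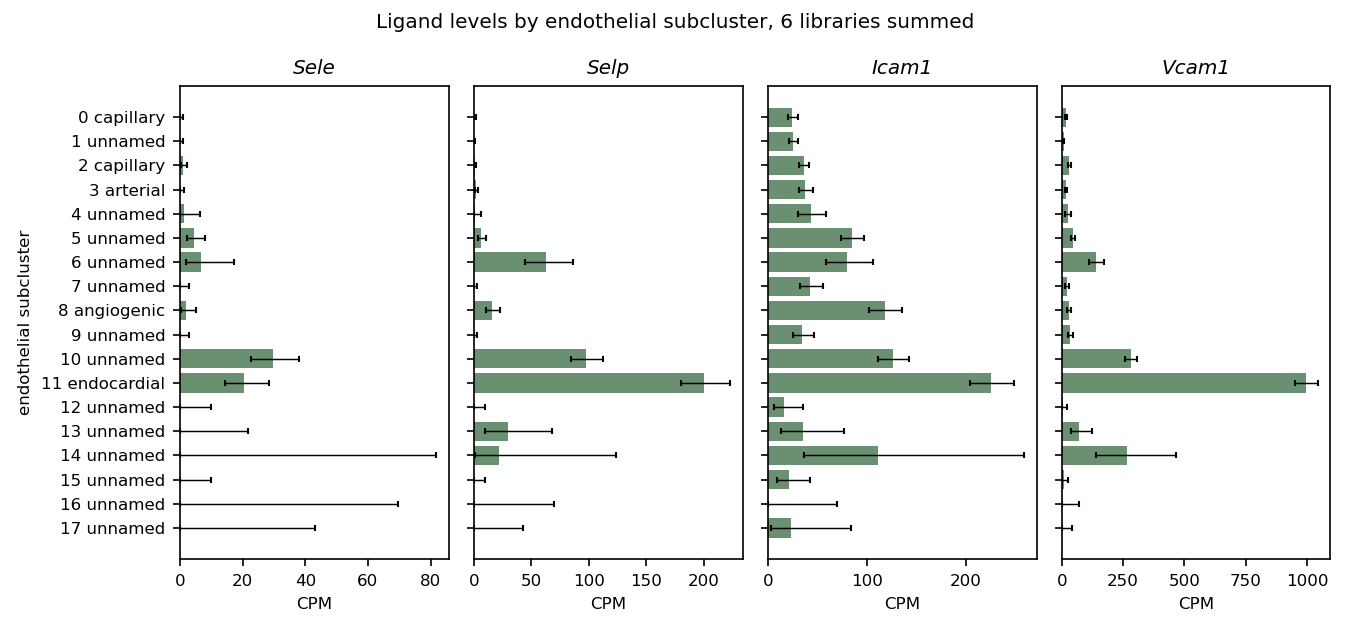
Ligand level in each of 18 endothelial subclusters with the 6 libraries summed, in CPM (each panel has its own axis from 0), with exact 95% Poisson intervals that are wide for small subclusters. Subclusters 10 and 11 stand out for Sele, Selp and Vcam1, with Vcam1 at 281 and 996 CPM, and Icam1 is spread more evenly.

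By library, Selp in the cells of subclusters 10 and 11 was again highest in WT at 24 h. Its level was 112 CPM in WT sham, 96.7 in KO sham, 735 in WT at 24 h and 85.8 in KO at 24 h, from 137, 165, 40 and 41 cells. Of the 40 WT cells at 24 h, 10 had a Selp UMI, and of the 41 KO cells 5 had 1. Vcam1 in these cells was 855, 632, 1313 and 1171 CPM. In the remaining endothelial cells, Icam1 still differed between WT sham (40.0 CPM, interval 35.7 to 44.7) and WT at 24 h (80.5, 70.4 to 91.6), and less between KO sham (37.3, 33.9 to 41.0) and KO at 24 h (48.8, 39.8 to 59.2), whereas Vcam1 stood at 33.4, 21.2, 21.002 and 21.3 CPM in the order WT sham, KO sham, WT at 24 h and KO at 24 h. These 2 subclusters were 5.33% to 5.83% of endothelial cells in the 4 libraries up to 24 h, and 24.5% of the 257 cells of WT at 72 h. In KO at 72 h subclusters 10 and 11 held 23 and 6 of 683 cells. The part of this shift in the ligand levels at 72 h was not tested. Other subclusters shifted with ligation. The angiogenic-like subcluster 8, at 118 CPM of Icam1 over all libraries, held 17 of 2350 cells in WT sham and 34 of 3095 in KO sham, but 147 of 735 in WT at 24 h and 97 of 757 in KO at 24 h, while the capillary-like subcluster 0 went from 546 to 45 cells in WT and from 742 to 111 in KO. The Icam1 difference in the remaining cells thus moved with a different mixture of subclusters. Within subcluster 8 Icam1 was 336 CPM in WT sham (24 UMIs) and 122 in WT at 24 h (91 UMIs), and within subcluster 0 it was 26.5 (18.9 to 36.1) and 53.2 (21.4 to 109.6), where the intervals overlap. The part of the mixture in the Icam1 difference was not tested.

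Endothelial cells with a Selp UMI often had the other ligands too. Of 104 such cells, 71.2% (95% exact interval 61.4 to 79.6) had Vcam1, 58.7% (48.6 to 68.2) had Icam1 and 21.2% (13.8 to 30.3) had Sele, against 7.14%, 10.99% and 0.244% of the 7773 cells without Selp. The cells with Selp were deeper, with a median of 8080 UMIs against 3092, and how much of the difference goes with depth was not tested.

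The changes of the ligands were set beside those of all genes. Past 2-fold means at least 2 times higher or at most 0.5 of the other library, with at least 50 UMIs over the pair. Of the 4 ligands, 3 were past it upward from sham to 24 h in WT (Sele, Selp and Icam1), where 6.11% of all 10031 genes were past it in either direction. In KO none of the 3 measured ligands was, where 5.30% of genes were. From 24 h to 72 h in WT, 2 of 3 measured ligands (Selp and Vcam1) were past it downward beside 11.5% of genes, and in KO Selp was past it upward and Vcam1 downward, beside 12.1%. For KO against WT, 1 of 4 ligands (Sele, lower) was past 2-fold in sham beside 1.53% of genes, 2 of 4 (Sele and Selp, lower) at 24 h beside 2.12%, and none of 3 at 72 h beside 5.20%. With so few members these counts describe the libraries, and those of Sele and Selp rest on the few cells given above.

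Transcripts of the leukocyte partners appeared in endothelial cells too, most of all in KO at 72 h. Itgb2 was at 3.19 to 9.38 CPM in the other 5 libraries and at 72.3 in KO at 72 h, and Selplg at 1.36 to 16.6 and at 61.3. KO stood above WT at 72 h by 13.03 times for Itgb2 (6.57 to 29.4), 19.9 times for Selplg (8.16 to 62.9) and 3.82 times for Itgam (2.35 to 6.42). Markers of leukocytes moved with them: in the endothelial cells of KO at 72 h all 10 neutrophil markers were seen and summed to 4378 CPM, and all 19 monocyte/macrophage markers summed to 4451 CPM, against 107 to 1761 and 150 to 858 CPM in the other libraries, while endothelial markers were at 14374 CPM there and from 19638 to 41454 CPM elsewhere. Without the 4 subclusters led by leukocyte genes, Itgb2 in KO at 72 h was 4.91 CPM (3 UMIs) and Selplg 8.18 (5). In KO at 24 h Selplg, Itgam and Itgb2 were also past 2-fold above KO sham, with Selplg 12.3 times higher (6.78 to 23.1), beside a neutrophil marker sum of 1761 CPM against 107. Without the 4 subclusters led by leukocyte genes Itgb2 was 3.12 times higher and Itgam 1.96 (0.982 to 3.69), the latter no longer past 2-fold. Selplg was then 6.91 (3.33 to 14.6), on only 19 UMIs at 24 h and 15 in sham. Together these are below the 50 UMIs set as the least for a ratio, so this Selplg value does not count as measured. The part of leukocyte RNA in these values was not tested.

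Of the wider trafficking list, 54 genes of rolling, junctions, other integrins, integrin activation and endothelial activation that were chosen with earlier results of these data known, counts past 2-fold were as follows in endothelium at 24 h. In WT 2 of 39 measured were higher and 1 lower, beside the 6.11% of all genes past it, with a median log2 ratio of 0.07 against 0.03 for all genes, and in KO 5 of 40 were higher and none lower, beside 5.30% of all genes, with a median of 0.07 against 0.02. Mcam, a junctional adhesion molecule of the immunoglobulin family, was 2.51 times higher in WT (2.24 to 2.82) and 2.06 times in KO, and the integrin chain Itgav 2.01 and 2.04 times. The third by size, Fyb, an adaptor of integrin activation, was 1.82 times higher in WT and was not measured in KO. The lowest were Jam3 at 0.428 in WT and 0.706 in KO, Jam2 at 0.691 and 0.878, both junctional, and Podxl, a sialomucin that can carry selectin ligands, at 0.716 and 0.852.

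Between genotypes, 1 of 41 measured genes of the list was past 2-fold in sham endothelium, beside 1.53% of all genes. The integrin chain Itgb3 was 2.31 times higher in KO sham (1.25 to 4.55), followed by the chemokine Cx3cl1 at 1.47, and the lowest were Fyb at 0.563 and Jam3 at 0.579. At 24 h none of 39 was past 2-fold, beside 2.12% of all genes, and with so few genes this count says little. Lrg1, which is made by inflamed vessels, stood at 1.9997 and Cx3cl1 at 1.69, and Tpst1, a tyrosine sulfotransferase that acts on selectin ligands, at 0.641 and Cyth1 at 0.735. At 72 h 7 of 40 were past 2-fold higher in KO and 1 lower, beside 5.20% of all genes. The highest were Cytip at 67.5 (11.6 to 2717, on a single UMI in WT) and Fermt3 at 8.03, both leukocyte genes, beside the leukocyte markers given above, and the lowest were Tpst1 at 0.494 and Mcam at 0.529.

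Fibroblasts carried the second large pool of Vcam1, and it was past 2-fold lower 24 h after ligation than in sham in both genotypes. Vcam1 was at 158 CPM in WT sham (633 UMIs), 191 in KO sham (858), 73.1 in WT at 24 h (188), 76.0 in KO at 24 h (188), 123 in WT at 72 h (381) and 74.6 in KO at 72 h (221). The ratio of ligation to sham was 0.462 in WT (0.391 to 0.545) and 0.398 in KO (0.338 to 0.467). These UMIs were spread over many cells, with a UMI in 59.7% and 51.9% of the sham fibroblasts. Icam1 stood higher at 24 h, from 37.7 to 70.0 CPM in WT, 1.86 times (1.49 to 2.32), and from 40.7 to 66.7 in KO, 1.64 times (1.32 to 2.03), neither past 2-fold. Of 3 members measured in WT fibroblasts, 2 were past 2-fold (Vcam1 and Itgam) beside 9.34% of genes, and of 2 in KO Vcam1 alone was, beside 14.0%. Itgam is a leukocyte gene, and in WT fibroblasts it was 6.23 times higher at 24 h than in sham. In the same cells the 10 neutrophil markers summed to 587 CPM at 24 h against 446 in sham. The 19 monocyte/macrophage markers summed to 357 against 224 CPM, and the part of leukocyte RNA in the Itgam value was not tested. In KO at 72 h the 19 monocyte/macrophage markers summed to 8916 CPM in fibroblasts, against 224 to 469 in the others, and the fibroblast values of that library carry this.

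Selp was also found in leukocyte clusters. In monocyte/macrophage cells it was at 11.6 CPM in WT sham (129 UMIs), 19.4 in KO sham (169), 16.8 in WT at 24 h (144), 7.18 in KO at 24 h (133), 1.95 in WT at 72 h (56) and 1.65 in KO at 72 h (15). It was highest in 1 cluster, led by Ccl24, Saa3, Serpinb2, Ltc4s and Arg1, with 36.0 CPM over the libraries, where every other monocyte/macrophage cluster had at most 3.37. In that cluster 3.82% to 10.4% of the cells of a library had a Selp UMI, and single cells held up to 35. The platelet gene Ppbp was also among its leading genes. From 24 h to 72 h the class went to 0.116 of its Selp level in WT (0.0838 to 0.159) and to 0.230 in KO (0.125 to 0.393). Over the same interval the cluster went from 190 of 660 monocyte/macrophage cells to 182 of 2084 in WT and from 276 of 1465 to 157 of 1529 in KO, and Selp within it from 46.5 to 30.6 CPM in WT and from 26.8 to 14.8 in KO (120 and 6 UMIs). In neutrophils Selp was thinly spread, with 205 UMIs in 169 of 3396 cells in KO at 24 h and at most 5 in 1 cell. It was at 7.04 and 14.8 CPM in WT sham and WT at 24 h, and at 12.4 and 21.7 in KO, while 7 platelet markers summed to 49.7 and 107 CPM in WT and 44.9 and 109 in KO. At 72 h the platelet sum was 72.9 CPM in WT and 143 in KO, where Selp was 4.40 and 1.17 CPM. The neutrophils then held 2043421 and 855282 UMIs in all, so these Selp levels rest on very few UMIs. The part of platelet RNA was not tested.

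Among the neutrophil partners, Itga4 was past 2-fold lower at 24 h than in sham, and higher at 72 h than at 24 h, in both genotypes, while Itgam was past 2-fold lower at 72 h than at 24 h. Itga4 was at 110 CPM in WT sham (234 UMIs), 109 in KO sham (167), 37.2 in WT at 24 h (156), 33.8 in KO at 24 h (320), 158 in WT at 72 h (322) and 160 in KO at 72 h (137). Both genotypes were lowest at 24 h and highest at 72 h. The ratio of 24 h to sham was 0.339 in WT (0.275 to 0.417) and 0.311 in KO (0.257 to 0.377), and that of 72 h to 24 h was 4.23 (3.49 to 5.16) and 4.74 (3.85 to 5.81). The share of neutrophils with an Itga4 UMI went from 16.4% to 8.94% and 24.3% in WT.

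The makeup of the neutrophils changed with time, and Itga4 differed between their clusters. A cluster led by Cstdc4, Cd177 and Ceacam10 held 696 of 1152 neutrophils in WT at 24 h and 1350 of 3396 in KO at 24 h, but 24 and 41 in the sham libraries and 5 and 2 at 72 h, and its Itga4 level was 12.1 CPM, against 82.5 to 105 in the other 3 neutrophil clusters. Within the cluster led by Ccrl2 and Tnf, Itga4 went from 101 to 83.9 and then 176 CPM in WT, and from 83.6 to 42.6 and then 158 in KO. The difference at 24 h was smaller within that cluster than over the class, while the level at 72 h was higher than at 24 h in both. The part of the makeup in the Itga4 differences was not tested. At 72 h the median gene of neutrophils stood 0.54 above 24 h in WT and 0.52 in KO on the log2 scale, and relative to it the WT ratio of Itga4 was 2.92.

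Itgam, the alpha chain of the myeloid integrin for Icam1 and complement, was highest at 24 h and lowest at 72 h. It was at 644 CPM in WT sham (1373 UMIs), 751 in KO sham (1154), 1121 in WT at 24 h (4701), 953 in KO at 24 h (9023), 374 in WT at 72 h (764) and 392 in KO at 72 h (335). At 24 h it stood at 1.74 times the sham level in WT (1.64 to 1.85) and 1.27 in KO (1.19 to 1.35), below 2-fold, and the change from 24 h to 72 h was to 0.333 (0.308 to 0.360) and 0.411 (0.367 to 0.458). Within the Ccrl2 and Tnf cluster Itgam was 634, 877 and 367 CPM in WT and 698, 845 and 395 in KO, so the same order held there. Selplg followed it, with 819, 1102 and 580 CPM in WT and 1099.55, 1189 and 481 in KO, and at 72 h it was at 0.526 of the 24 h level in WT (0.493 to 0.561), not past 2-fold, and at 0.404 in KO (0.365 to 0.446).

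Itgb2 and Itgal, the shared beta chain and the alpha chain found on nearly all leukocytes, varied less in neutrophils. Itgb2 was at 424, 365 and 401 CPM in WT sham, 24 h and 72 h and at 451, 370 and 445 in KO, and none of its ratios was past 2-fold. Itgal was at 258, 166 and 149 CPM in WT and 224, 165 and 164 in KO. Neutrophils were also rich in Icam1 itself: 257 CPM in WT sham (547 UMIs), 108 in WT at 24 h (454) and 127 in WT at 72 h (260), and 176, 75.1 and 154 in KO. It fell at 24 h to 0.422 in WT (0.372 to 0.479) and 0.428 in KO (0.371 to 0.494), opposite to its direction in endothelium and fibroblasts. By cluster it was 219 CPM in the Ccrl2 and Tnf cluster, which held 605 of 879 neutrophils in WT sham and 169 of 1152 in WT at 24 h, 106 in the Cstdc4 cluster and 24.4 in the Retnlg and S100a9 cluster.

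**Figure D5:**
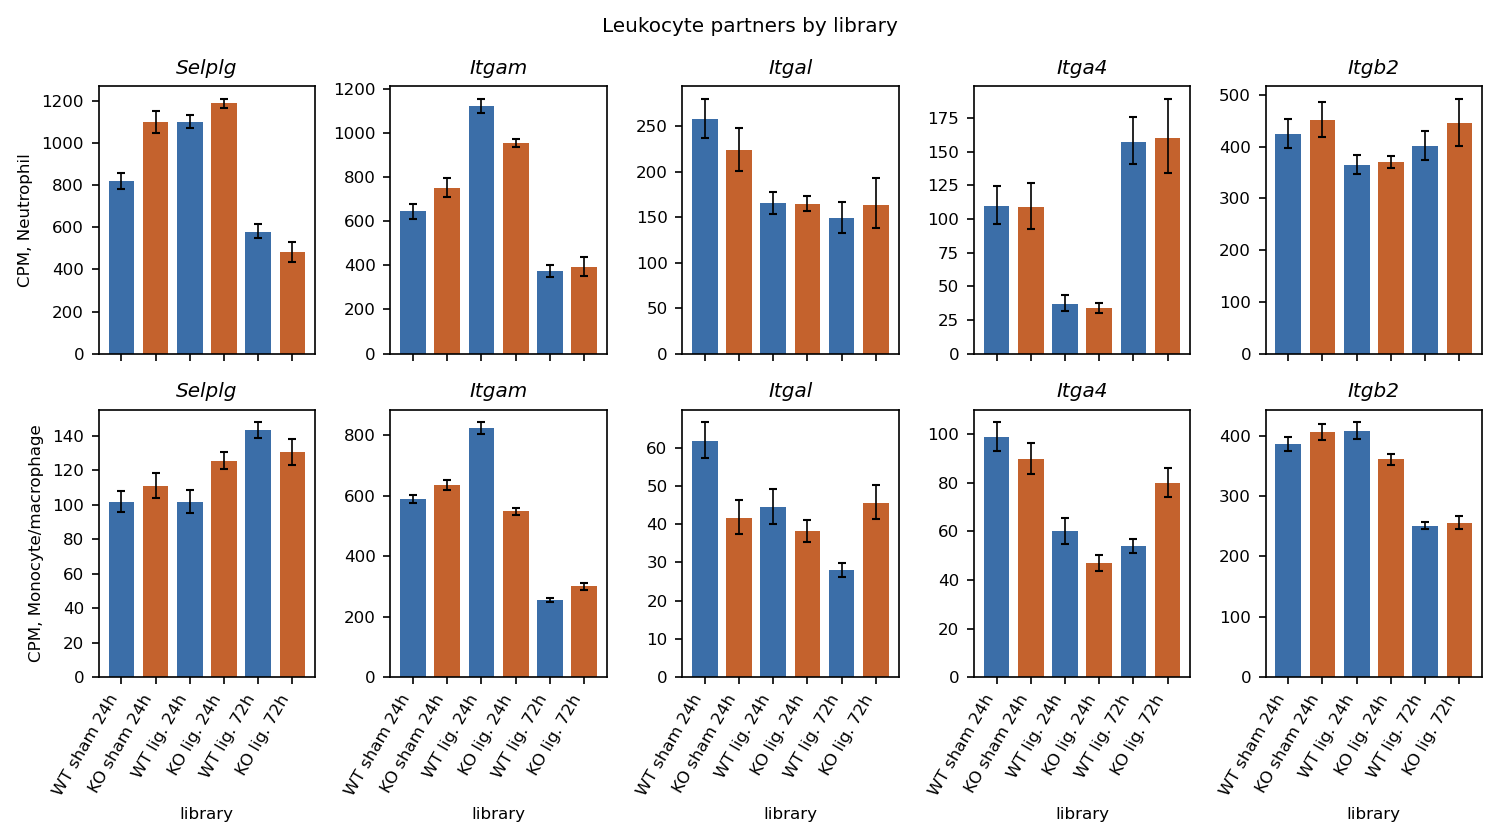
Level of the 5 leukocyte partners in neutrophils (top) and monocyte/macrophage cells (bottom) of each library, in CPM, with exact 95% Poisson intervals (blue WT, orange KO; each panel has its own axis from 0). In neutrophils Itga4 dips to 37.2 and 33.8 CPM at 24 h, where Itgam is highest at 1121 and 953.

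In neutrophils 3 of 7 measured members were past 2-fold from sham to 24 h in WT (Selp higher, Icam1 and Itga4 lower) beside 13.3% of genes, and 2 of 7 in KO (Icam1 and Itga4) beside 6.48%. From 24 h to 72 h 3 of 7 were in WT (Itga4 higher, Itgam and Selp lower) beside 38.9%, and 5 of 7 in KO beside 34.6%, so that the share for WT is close to that of genes at large. Selp, counted in both, had very few UMIs at 72 h. No member was past 2-fold for KO against WT, of 6 in sham, 7 at 24 h and 6 at 72 h, where 1.10%, 3.20% and 1.53% of genes were. The largest genotype ratios were 0.685 for Icam1 in sham (0.590 to 0.794) and 0.694 at 24 h (0.616 to 0.782), 1.46 for Selp at 24 h (1.10 to 1.98) and 1.34 for Selplg in sham (1.25 to 1.44). For Itga4 KO stood at 0.990 of WT in sham (0.807 to 1.21), 0.909 at 24 h (0.748 to 1.11) and 1.02 at 72 h (0.826 to 1.25), intervals that hold 1.

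In monocyte/macrophage cells Itgam was lowest at 72 h. It was at 589 CPM in WT sham (6559 UMIs), 635 in KO sham (5527), 824 in WT at 24 h (7061), 548 in KO at 24 h (10153), 256 in WT at 72 h (7333) and 301 in KO at 72 h (2735). WT at 24 h stood at 1.40 times sham (1.35 to 1.45) and KO at 0.864 (0.836 to 0.893), and KO stood at 0.666 of WT at 24 h (0.646 to 0.686). At 72 h the level was 0.310 of that at 24 h in WT (0.300 to 0.321) and 0.549 in KO (0.526 to 0.573). Clusters turned over at the same time: those led by Fcrls and Gpnmb, by Cxcl10 and Ly6c2 and by histone genes held 540, 542 and 197 of 2084 cells in WT at 72 h and 3, 9 and 0 of 660 at 24 h, and stood at 137 to 230 CPM of Itgam. Within the cluster led by Ccl2, Ccl7 and Spp1, which is present throughout, Itgam was 450, 608 and 340 CPM in WT and 454, 506 and 376 in KO. Within the Ccl24 and Saa3 cluster it was 946, 1328 and 1028 CPM in WT and 1046, 799 and 995 in KO, so this cluster had no low value at 72 h and held the largest gap between the genotypes at 24 h.

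The remaining partners differed by less than 2-fold from sham to 24 h and from 24 h to 72 h in these cells. Itga4 was at 98.8, 59.97 and 53.9 CPM in WT sham, 24 h and 72 h and at 89.9, 46.9 and 79.9 in KO, so both were lower at 24 h, at 0.607 in WT (0.546 to 0.675) and 0.521 in KO (0.473 to 0.575), the same direction as in neutrophils. Within the Ccl24 and Saa3 cluster it was 103 and 53.6 CPM in WT sham and at 24 h and 96.9 and 41.8 in KO, and within the Ccl2 cluster 42.0 and 19.9, and 44.8 and 16.04. Itgb2 was at 386, 408 and 251 CPM in WT and 407, 361 and 256 in KO. Selplg, at 102, 102 and 143 CPM in WT and 111, 125 and 130 in KO, was 1.41 times higher at 72 h than at 24 h in WT (1.31 to 1.52). Itgal was at 61.8, 44.5 and 28.0 CPM in WT and 41.7, 38.2 and 45.6 in KO. It stood at 1239 CPM in a small cluster of non-classical monocytes, led by Ear2, Adgre4 and Itgal itself. That cluster also had the highest Itga4 level, 618 CPM, and Itgb2 level, 720 CPM, of these clusters. Its part in the Itgal values of the class was not tested. Non-classical monocytes patrol the vessel wall by means of the integrin that holds Itgal.

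In this class none of 8 measured members was past 2-fold from sham to 24 h in WT beside 6.54% of genes, 1 of 8 (Selp, lower) was in KO beside 9.50%, 2 of 8 (Itgam and Selp, lower) from 24 h to 72 h in WT beside 19.2%, and 1 of 8 (Selp, lower) in KO beside 11.6%. For KO against WT none of 8 was in sham beside 2.64%, 1 of 8 (Selp, lower, at 0.428) at 24 h beside 1.79%, and none of 8 at 72 h beside 3.02%. KO at 72 h, the shallow library, had Itga4 at 1.48 (1.35 to 1.62) and Itgal at 1.63 (1.44 to 1.84) of WT, and its cells were clustered at a median of 3207 UMIs against 12089.

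The trafficking list was read in leukocytes in the same way. In neutrophils 2 of 31 measured genes were past 2-fold higher and 3 lower at 24 h in WT, beside 13.3% of all genes. The median log2 ratio was -0.16 against -0.22 for all genes. In KO 0 of 34 were higher and 4 lower, beside 6.48% of all genes, with a median of -0.32 against -0.19. Pecam1, an adhesion molecule of endothelium and leukocytes, stood at 3.15 (1.84 to 5.72) in WT but 0.523 in KO, Cd47, a signal against phagocytosis, at 2.54 and 1.93, and B4galt1, a galactosyltransferase, at 1.89 and 1.22. Endothelial markers in neutrophils summed to 326 CPM in WT sham and 150 in WT at 24 h, and to 574 and 87.7 in KO, and their part in the Pecam1 values was not tested. The lowest were the integrin chain Itgax at 0.441 in WT and 0.368 in KO, the transcription factor Irf1 at 0.445 and 0.526, and Fyb at 0.452 and 0.680. At 72 h against 24 h Itgax was 4.65 times higher in WT and 5.17 in KO, Irf1 2.54 and 2.63 and Fyb 1.92 and 1.38, and the lowest were Pecam1 at 0.228 and 0.954, Lrg1 at 0.305 and 0.261 and Cd47 at 0.406 and 0.544. There 2 of 31 were past 2-fold higher and 4 lower in WT, beside 38.9% of all genes. The WT median was -0.37 where all genes had 0.54. In KO 2 of 32 were higher and 4 lower, beside 34.6%, with -0.02 where all genes had 0.52.

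In monocyte/macrophage cells at 24 h none of 45 list genes was higher and 6 lower in WT beside 6.54% of all genes, with a median log2 ratio of -0.08 against -0.12, and 1 of 47 was higher and 11 lower in KO beside 9.50%, with -0.29 against -0.28. Among the highest were the NF-kappaB inhibitor Nfkbia at 1.86 in WT and 1.25 in KO and Lrg1 at 1.81 and 2.36. The lowest were Podxl at 0.153, Cdh5 at 0.337 and Cd34 at 0.343, and at 72 h against 24 h the highest were Mcam at 18.9 (6.38 to 92.6, on 3 UMIs at 24 h), Podxl at 6.57 and Cd34 at 6.00. These 4 genes are known from endothelium, and the endothelial markers in these cells summed to 254 CPM in WT sham, 111 at 24 h and 265 at 72 h, and to 881, 36.5 and 423 in KO, so endothelial RNA moved with them and its part was not tested. The lowest at 72 h were Itga1 at 0.236 in WT and 0.437 in KO, Tnfaip3 at 0.255 and 1.01, and Lrg1 at 0.283 and 0.311, and in all 9 of 47 were higher and 7 lower in WT beside 19.2% of all genes, with a median of -0.10 against 0.04, and 8 and 3 of 47 in KO beside 11.6%, with 0.03 against 0.12.

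For KO against WT, the extremes of the list in neutrophils were Pecam1 at 3.12 and Cdh5 at 1.80 above and Rap1b at 0.808 and Itgax at 0.813 below in sham, Itgb7 at 1.56 and Itgb5 at 1.54 above and Pecam1 at 0.519 and Nfkb1 at 0.608 below at 24 h, and Itgb1 at 1.56 and Itgav at 1.48 above and Itgax at 0.754 and Tpst2 at 0.760 below at 72 h. In monocyte/macrophage cells they were Esam at 4.18 and Cdh5 at 3.80 above and Itgax at 0.504 and Cytip at 0.754 below in sham, Lrg1 at 1.38 and Itgb5 at 1.37 above and Cdh5 at 0.429 and Tnfaip3 at 0.448 below at 24 h, and Cdh5 at 1.95 and Esam at 1.93 above and Mcam at 0.798 and Cd99l2 at 0.834 below at 72 h. Esam and Cdh5 are junction genes of endothelium, and the endothelial marker sums given above, for neutrophils as for monocyte/macrophage cells, were also higher in KO sham than in WT sham. In neutrophils 1 of 32 list genes in sham, none of 34 at 24 h and none of 29 at 72 h was past 2-fold between the genotypes. Beside them stood 1.10%, 3.20% and 1.53% of all genes. In monocyte/macrophage cells 5 of 47 were higher in KO sham, 2 of 43 lower in KO at 24 h and none of 47 past it at 72 h. There 2.64%, 1.79% and 3.02% of all genes were. With so few genes these counts say little.

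The smaller leukocyte classes had their own mixtures of partners. T/NK cells stood at 313 to 470 CPM of Selplg and 131 to 204 CPM of Itga4 in the 4 ligation libraries, and B cells at 112 to 155 CPM of Itga4 but 61.9 to 94.5 CPM of Selplg. Dendritic cells stood at 188 to 283 CPM of Selplg, 223 to 289 CPM of Itgb2 and 56.0 to 81.6 CPM of Itga4 over the 6 libraries. Smooth muscle cells had Itga4 at 18.2 to 41.5 CPM in the 4 libraries with at least 50 of these cells, with Itgb2 at 2.19 to 6.73 CPM beside it.

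The alpha chains of the Itgb2 integrins were seen with their partner in most cells that had them. Of 6284 monocyte/macrophage cells with Itgam, 89.3% (88.5 to 90.1) had Itgb2, against 49.5% of the 1304 without Itgam, and of 5750 neutrophils with Itgam 61.6% (60.3 to 62.9) had it, against 52.6% of 1714. The cells with Itgam were deeper, at medians of 11157 against 3663 and 2545 against 2060 UMIs. Over the 57 sums the genes most like Itgb2 were Laptm5 (r = 0.97), Fcer1g (0.95) and Stxbp2 (0.95), and those most like Itgam were Fcgr3 (0.96), Lilrb4a (0.96) and Ccr1 (0.96). For Selplg they were Ptprc (0.95), Rassf5 (0.94) and Rac2 (0.94), for Itgal Mbp (0.91), Hcst (0.91) and Arrb2 (0.90), and for Itga4 Dock8 (0.92), Sash3 (0.92) and Arhgap15 (0.90). Among the ligands, Vcam1 was most like Cdh11 (0.91), Vegfc (0.90) and Nid2 (0.89), Icam1 like Elf4 (0.82), Casp4 (0.82) and Vav3 (0.82), and Selp like Vwf (0.75), 5033406O09Rik (0.74) and Cd9 (0.73). The correlation of Selp with Sele over the same sums was -0.09 and that of Vcam1 with Icam1 0.13, where that of Itgal with Itgb2 was 0.89.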

How the data were processed

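The deposited files hold raw UMI counts per gene and cell barcode, which the authors made with Cell Ranger 6.0.0 against mm10, per the submitters' processing notes; the annotation and strand setting are not given in the sources used here. Of 34940 deposited cells, 32085 were kept with at least 200 genes and at most 20% mitochondrial UMIs, after removal of 1653 likely doublets: the Scrublet score's automatic threshold marked 0 to 50 cells per library, so the highest scores were removed at 0.8% per 1000 cells. Counts were scaled to 10000 per cell for clustering (2000 variable genes without the 9 genes, 30 components, 20 neighbours, Leiden resolution 1, scanpy 1.11.5, Python 3.11.15), and clusters were named from fixed marker lists. Raw counts were then summed per class and library with at least 50 cells. Levels carry exact Poisson 95% intervals and ratios exact conditional ones (scipy 1.17.1), shares are given with exact binomial ones, and a count of 0 was set to 3. PCR duplicates are collapsed by UMI, and intervals cover counting error only. Total counts per library ran from 20995280 to 45649061.

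The 9 genes, the trafficking list and the markers were chosen with earlier results of these data known. Of the trafficking list the text names the 3 highest and 3 lowest WT ratios between conditions and the 2 highest and 2 lowest between genotypes, in endothelial cells (24 h against sham), neutrophils and monocyte/macrophage cells, and for each of the 9 genes the 3 most like it; 1 result that this rule names is not reported here. In simulated independent Poisson counts modelled on 10012 endothelial genes (WT, 24 h against sham), some genes were given changes larger than 2-fold. The ratio step recovered 100% of these, and at least 98% of those among 6401 genes in neutrophils (WT, 72 h against 24 h). Such draws hold no UMIs gathered in few cells, so this check of the arithmetic does not cover genes such as Selp and Sele. Gene positions are from GENCODE M21 (GRCm38), to which 32158 of 32285 identifiers matched.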

Additional observations from a re-analysis of the deposited data

How the results depend on the processing

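Each group is 1 pooled library and the class sums carry no spread between animals, so an interval here says nothing of how another pool would read. Few UMIs limit Sele everywhere and Selp outside WT at 24 h, and the shallow KO library at 72 h limits every value that uses it. No paired analysis was possible because each group has 1 library and no result comes from a test. Another 3 alternatives, leaving out the 5 highest cells of each library, leaving out the endothelial subclusters led by leukocyte genes, and using the share of cells with a UMI, were chosen after seeing the data. The cause of the differences below was not tested.

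Of 1104 ratios recomputed, 888 moved by less than their counting interval, 214 moved by more and 2 reversed. Clustering at resolution 0.5 or 2, cells with at least 1500 UMIs and letting the 9 genes enter the variable genes moved 1, 2, 0 and 0 of 108 ratios, removing no doublets 6, the mean of each cell's CPM 27, the median gene as reference 32, thinning 56 and shares of cells 75. Both reversals were of endothelial Vcam1 from 24 h to 72 h, where unthinned shares of cells gave 1.32 in WT and 1.13 in KO.

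For endothelial Selp in WT from sham to 24 h, the mean of each cell's CPM gave 4.29, leaving out the 5 highest cells 1.84, leaving out the subclusters led by leukocyte genes 7.04, and shares of cells 1.64. For KO it was 1.85 with no doublet removal, 0.279 thinned and 0.139 without the 5 highest cells. For KO against WT at 24 h it was 0.183, 0.0511 and 0.0347 under the same 3 settings, and 0.324 by shares. Sele for KO against WT at 24 h was 0.579 by the mean of each cell's CPM, and without the 5 highest cells at most 0.583, since KO then had 0 UMIs and was set to 3 counts.

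Endothelial Icam1 in WT from sham to 24 h was 1.83 thinned, 1.86 without the 5 highest cells and 1.60 by shares, all below 2-fold. In KO it was 1.51 with no doublet removal, 1.02 thinned, 1.04 without the 5 highest cells and 0.951 by shares, and for KO against WT at 24 h it was 0.427 thinned. Endothelial Vcam1 from sham to 24 h was 1.18 in WT and 1.32 in KO by the mean of each cell's CPM, 0.927 and 1.004 without the 5 highest cells, 0.955 and 0.832 by shares, and 1.36 in KO thinned.

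Neutrophil Itga4 in WT was 0.546 by shares from sham to 24 h, and from 24 h to 72 h 2.92 relative to the median gene and 2.72 by shares. Monocyte/macrophage Itgam in WT from 24 h to 72 h was 0.324 at both other clustering resolutions, 0.435 thinned, 0.403 by the mean of each cell's CPM and 0.905 by shares.

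Counts of genes past 2-fold depended on the least UMIs asked of a pair. With 20 or 200 in place of 50, the endothelial count went from 613 to 995 or 256 for WT and from 540 to 1024 or 190 for KO from sham to 24 h, from 936 to 1468 or 359 and from 880 to 1590 or 326 from 24 h to 72 h, and for KO against WT from 166 to 379 or 49 in sham, 179 to 440 or 36 at 24 h and 333 to 817 or 95 at 72 h. In neutrophils the counts were 799 (1283 or 320) and 455 (971 or 145) from sham to 24 h, 2510 and 2441 (1091 and 1083 with 200) from 24 h to 72 h, and 56 (315 or 9), 235 (545 or 64) and 84 (339 or 16) between genotypes. In monocyte/macrophage cells they were 637 (1091 or 266) and 965 (1541 or 416), 2083 (1275 with 200) and 1181 (1814 or 556), and 264 (559 or 59), 177 (432 or 61) and 330 (697 or 102). Relative to the median gene, 14 and not 6 genes of the trafficking list were past 2-fold in WT neutrophils from 24 h to 72 h, and 3 and not 5 from sham to 24 h.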
